A study of Saccharomyces cerevisiae with 12 samples.

Results

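Ribosome footprints of budding yeast, the short RNA fragments that translating ribosomes shield from nuclease, were compared gene by gene for a response to 42 °C that differed between a Ded1 variant strain and its wild-type counterpart. The quantity was the log2 change from 30 to 42 °C in the variant minus the same change in wild type, called the difference of responses here. It rested on 8 of the 12 libraries of the study, and the 4 libraries at 40 °C entered the fit for the shared estimate of spread. The variant strain, labelled IDRm, carried Ded1_IDRm-mCherry, and the wild-type strain, labelled WT, carried Ded1-mCherry. Both were W303 Ade+ and both carried the red fluorescent mCherry tag on Ded1; the labels do not spell out the abbreviation IDRm. Cultures of both strains, kept at 30 °C until the OD600 was 0.5, were divided into portions of 200 ml and held for 10 min at 30, 40 or 42 °C. There were 2 libraries for each of IDRm at 42 °C, IDRm at 30 °C, WT at 42 °C and WT at 30 °C, from pre-cultures grown in duplicate.

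Ded1 is a DEAD-box RNA helicase that helps the small ribosomal subunit load on an mRNA and scan its leader to the start codon, and mRNAs with long or folded leaders depend on it most. In heated yeast, initiation on most mRNAs is cut back, chaperone and stress mRNAs are induced by Hsf1 and by Msn2 and Msn4, and genes for making ribosomes are shut down. Ded1 itself leaves solution and gathers into condensates when cells are heated. The comparison addresses which mRNAs gain or lose ribosomes differently on heating when Ded1 carries the IDRm change. No RNA-seq was used here, so a change of mRNA level and a change of translation per mRNA cannot be told apart. Likewise, fewer cells translating a gene and fewer footprints per cell cannot be told apart. Levels are in CPM, counts per 1000000 of the scaled total of their own library, so each is relative to the other genes of that library.

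Short stretches upstream of coding sequences are shown first, because the genes that differed most carried them more often than genes at large. The stress-response element has the letters AGGGG and is bound by Msn2 and Msn4. It lay within 300 bases before the start codon in 8 of the 12 genes with the highest called differences among those named by rule. MIG2, HXK1, CIN5 and GSY1 had no match there. The rule asked for strain responses that did not overlap and at least 20 CPM on average over the 8 libraries at 30 and 42 °C. HXT7 and IGD1 reached that average only through IDRm at 42 °C, so the count of 8 is a description only. The PAC element, the letters GATGAG known from ribosome biogenesis genes, lay within 300 bases in all 12 of the called ribosome biogenesis genes with the lowest differences. Most of that whole list carries it, as given below, so those 12 say little about the differences. Among all genes called lower by at least 2-fold it lay before 41.5% of 212, against 18.8% of all windows. Each line gives 30 bases on the coding strand, 5′ to 3′, from the RefSeq R64 genome of the reference strain S288C, with the element in capitals on whichever strand it was read.
HXT7, chrIV:1156154-1156183, minus strand: atctttcgagatCCCCTgtaacttattggc
IGD1, chrVI:183082-183111, minus strand: cgttaacatctcCCCCTgatctgggggatg
BDH2, chrI:33174-33203, plus strand: gagaactaagcaAGGGGgttaaccaccacg
TDA1, chrXIII:852353-852382, plus strand: ctgacaatagaaAGGGGgattcctaaaaaa
UTP23, chrXV:333512-333541, plus strand: tataattatcgtGATGAGcaagaagggaag
MAK21, chrIV:570482-570511, plus strand: ttttcttttggcGATGAGgtaaaaaattat
REI1, chrII:739732-739761, plus strand: gggtaccgatgcGATGAGgtgaaaaaaatt
The first 4 belong to a hexose transporter, an inhibitor of glycogen debranching, a butanediol dehydrogenase homologue and a kinase that responds to glucose. The other 3 belong to ribosome assembly factors.

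Counted over both strands, AGGGG was found before 39.7% of the 647 genes called higher that had a window, before 16.9% of 906 called lower, and before 22.5% of all 5571 windows. GATGAG was found before 13.4% of the genes called higher, 35.9% of those called lower and 18.8% of all. A further element of ribosome biogenesis genes, RRPE with the letters AAAATTTT, was found before 4.95% of the genes called higher, 25.6% of those called lower and 9.8% of all. AGGGG and GATGAG can overlap by at most the letters AG, and AAAATTTT can overlap neither. Among genes called lower outside the ribosome biogenesis and RNA polymerase lists, GATGAG still stood before 27.1% of 779 and AAAATTTT before 16.9%. Among genes called higher outside the general stress and trehalose lists, AGGGG stood before 38.0% of 618. The elements above were not the only ones counted. Those known as Mig1 core, Gcn4, HSE, E-box, Met31 and PACE were counted in the same windows. They stood before 6.65%, 10.5%, 2.01%, 4.79%, 2.47% and 1.39% of the genes called higher, in that order. Over all windows the shares were 2.93%, 7.97%, 0.915%, 3.63%, 1.67% and 1.27%. For the genes called lower they were 3.2%, 7.84%, 0.883%, 4.64%, 0.993% and 1.21%. A match is a stretch of letters and was not tested as a binding site.

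DED1 (YOR204W, chromosome XV, 722911 to 724725), the tagged gene, whose product differs between the strains, had 1272 and 1331 CPM in IDRm at 42 °C and 1436 and 1426 CPM in IDRm at 30 °C, against 1280 and 1457 CPM in WT at 42 °C and 1381 and 1427 CPM in WT at 30 °C. The strains overlapped at both temperatures, and the difference of responses was −0.10 ± 0.10 (± standard error here and below; adjusted p = 0.481 by the quasi-likelihood test of edgeR). Gene counts give no check of the allele in a library. Total counts of the 8 libraries ran from 3429950 to 7851819, and replicates correlated at 0.9894 to 0.9942 over genes on log2 CPM. The 2 WT libraries at 30 °C differed in heat-induced genes, and for the heat-induced chaperones HSP104, HSP26 and SSA4 values are given without each. Markers of a cells made up 0.0622% to 0.13% of the counts and the 4 alpha-cell markers 0.000843% to 0.00252%, with 2 of those 4 too low to test.

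Of 5719 genes tested, 650 (11.4%) were called higher and 919 (16.1%) lower in the difference of responses at an adjusted p of at most 0.05, 27.4% in all. Of these, 123 (2.15% of those tested) were higher and 223 (3.9%) lower by at least 2-fold. Scaled by library size and nothing else, 455 genes were called higher and 1098 lower, so the share called higher depends on the scaling, while the median over all genes moved to −0.0682 with it, against 0.013. Without IDRm replicate 1 at 30 °C, 415 were higher and 704 lower. Every p-value rests on the variation of duplicate libraries, with 1 estimate per gene shared by all groups. That estimate was drawn toward those of other genes, with a median of 25.5 prior degrees of freedom beside 6 residual ones.

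The strains responded alike in kind. Across genes the IDRm response and the WT response, which share no library, had a Pearson correlation of 0.91 and a Spearman correlation of 0.892, as a description over 5719 genes that are not independent. The IDRm response was wider, with a median absolute change of 0.656 against 0.463 in WT, and a standard deviation over genes of 1.39 against 1.13. It was called in 4202 genes (73.5%) in IDRm and in 3635 (63.6%) in WT, and 3186 were called in both, which is 75.8% of the IDRm calls and 87.6% of the WT calls. Of those 3186 genes, 3138 moved the same way. The genes called higher had a median change of 0.782 in IDRm against 0.167 in WT, and those called lower −1.2 against −0.461. Their strain difference lay mostly at 42 °C, with medians of 0.529 for the higher genes and −0.601 for the lower genes, against −0.126 and 0.105 at 30 °C. Median coding length was 1130 bases in the genes called higher, 1497 in those called lower and 1246 over all 5590 annotated genes tested.

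**Figure D1:**
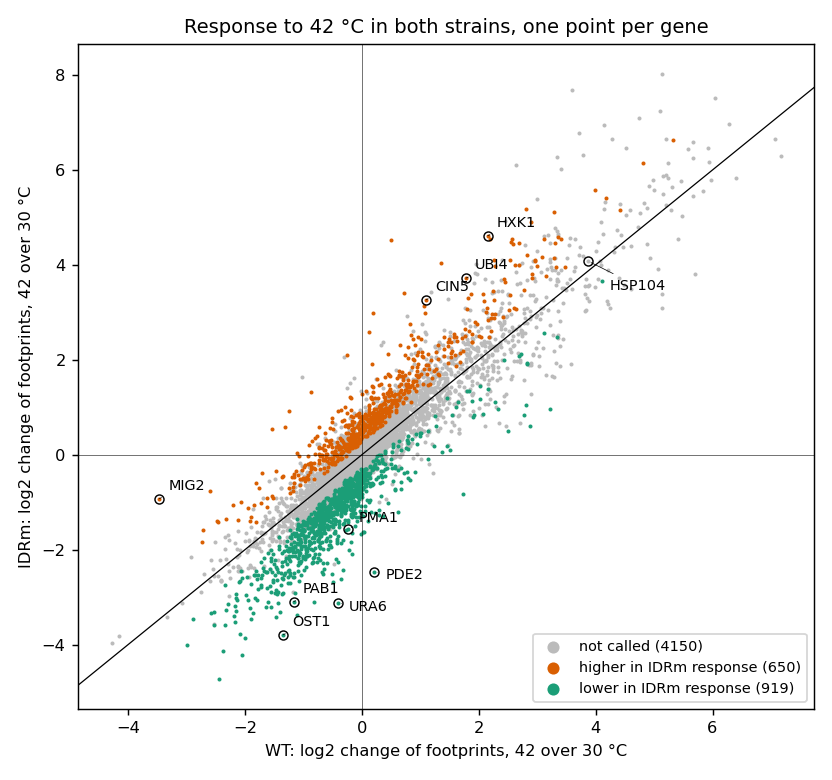
Each point is 1 of 5719 genes, with the log2 change from 30 to 42 °C in WT on the horizontal axis and in IDRm on the vertical axis; the diagonal marks equal responses. The 650 genes called higher lie above the diagonal and the 919 called lower below it.

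Among the 12 highest differences that met the naming rule were genes of sugar use, glycogen and stress. HXT6 at 4.03 and MTH1 at 2.19 were called at means under its 20 CPM. HXK1 (YFR053C, chromosome VI, 253592 to 255049), a hexokinase that glucose represses, had 2926 and 2750 CPM in IDRm at 42 °C and 94.1 and 137 CPM in IDRm at 30 °C, against 659.8 and 581 CPM in WT at 42 °C and 152 and 124 CPM in WT at 30 °C. Both IDRm libraries at 42 °C stood far above both WT libraries, while the 30 °C libraries overlapped. The response was 4.62 in IDRm and 2.15 in WT, a difference of 2.46 ± 0.22 (edgeR, adjusted p = 4.28e-05). MIG2 (YGL209W, chromosome VII, 95858 to 97006), a repressor that acts when glucose is ample, had 25.8 and 32.4 CPM in IDRm at 42 °C and 51.6 and 58.2 CPM in IDRm at 30 °C, against 5.62 and 4.90 CPM in WT at 42 °C and 61.9 and 54.9 CPM in WT at 30 °C. It fell in both strains, but less in IDRm, with changes of −0.92 in IDRm against −3.46 in WT (difference 2.54 ± 0.22, edgeR adjusted p = 1.71e-10).

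CIN5 (YOR028C, chromosome XV, 383533 to 384420), a bZIP transcription factor of salt and drug tolerance, had 198 and 175 CPM in IDRm at 42 °C and 18.4 and 20.3 CPM in IDRm at 30 °C, against 41.7 and 35.2 CPM in WT at 42 °C and 18.5 and 17.6 CPM in WT at 30 °C. The strains were close at 30 °C and far apart at 42 °C, and the difference of responses was 2.17 ± 0.18 (edgeR, adjusted p = 4.35e-11). TDA1 (YMR291W, chromosome XIII, 852630 to 854390), a kinase that responds to glucose limitation, had 518 and 504 CPM in IDRm at 42 °C and 74.9 and 75.7 CPM in IDRm at 30 °C, against 139 and 137 CPM in WT at 42 °C and 85.2 and 66.8 CPM in WT at 30 °C, a difference of 1.93 ± 0.12 (edgeR, adjusted p = 1.33e-13). HXT7 (YDR342C, chromosome IV, 1154216 to 1155928), a high-affinity hexose transporter, had 81.7 and 80.5 CPM in IDRm at 42 °C and 12.9 and 13.9 CPM in IDRm at 30 °C, against 9.90 and 8.40 CPM in WT at 42 °C and 10.3 and 4.87 CPM in WT at 30 °C. It rose in IDRm and showed no detectable change in WT (2.59 against 0.13), and the difference was 2.47 ± 0.28 (edgeR, adjusted p = 2.82e-08). HXT7 shares 96.0% of its 28-base words with other coding sequences, chiefly its neighbour HXT6, so the counts of the pair are uncertain singly.

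IGD1 (YFR017C, chromosome VI, 182274 to 182861), an inhibitor of the glycogen debranching enzyme, had 97.5 and 97.8 CPM in IDRm at 42 °C and 3.60 and 4.70 CPM in IDRm at 30 °C, against 20.7 and 25.2 CPM in WT at 42 °C and 5.23 and 4.33 CPM in WT at 30 °C, and its difference was 2.35 ± 0.31 (edgeR, adjusted p = 4.33e-07). GSY1 (YFR015C, chromosome VI, 174265 to 176391), a glycogen synthase, had 279 and 276 CPM in IDRm at 42 °C and 8.91 and 15.6 CPM in IDRm at 30 °C, against 132 and 112 CPM in WT at 42 °C and 23.8 and 15.4 CPM in WT at 30 °C, and its difference was 1.92 ± 0.25 (edgeR, adjusted p = 1.46e-05). In both genes the IDRm libraries at 42 °C were the highest of all 8. BDH2 (YAL061W, chromosome I, 33448 to 34701), named as a butanediol dehydrogenase by homology, rose by 4.54 in IDRm and by 2.57 in WT, a difference of 1.97 ± 0.18 (edgeR, adjusted p = 2e-10). CCW22 (YDR134C, chromosome IV, 721071 to 721481), a cell wall protein gene, rose by 3.14 and 1.06, a difference of 2.08 ± 0.15 (edgeR, adjusted p = 2.95e-11). DPI8 (YJL133C-A, chromosome X, 159623 to 159847) moved in opposite directions, by 0.59 in IDRm and −1.31 in WT, a difference of 1.90 ± 0.27 (edgeR, adjusted p = 2.62e-05).

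UBI4 (YLL039C, chromosome XII, 64062 to 65207), the heat-induced polyubiquitin gene, had 2021 and 2084 CPM in IDRm at 42 °C and 147 and 164 CPM in IDRm at 30 °C, against 1415 and 1423 CPM in WT at 42 °C and 412 and 412 CPM in WT at 30 °C. Its difference of responses, 1.94 ± 0.10 (edgeR, adjusted p = 1.68e-15), lay mostly at 30 °C, where IDRm over WT was −1.40 on the log2 scale, against 0.53 at 42 °C. HSP12 (YFL014W, chromosome VI, 107256 to 107585), a small membrane-stabilising stress protein, had 1087 and 954 CPM in IDRm at 42 °C and 25.2 and 42.1 CPM in IDRm at 30 °C, against 174 and 136 CPM in WT at 42 °C and 13.6 and 33.5 CPM in WT at 30 °C. Its 30 °C libraries spread widely and its difference was 2.0 ± 0.56 (edgeR, adjusted p = 0.0419), and the call was lost in 9 of 15 other settings, where the adjusted p reached 0.115. The strain difference at 42 °C alone was 2.71 (edgeR, adjusted p = 0.000486).

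**Figure D2:**
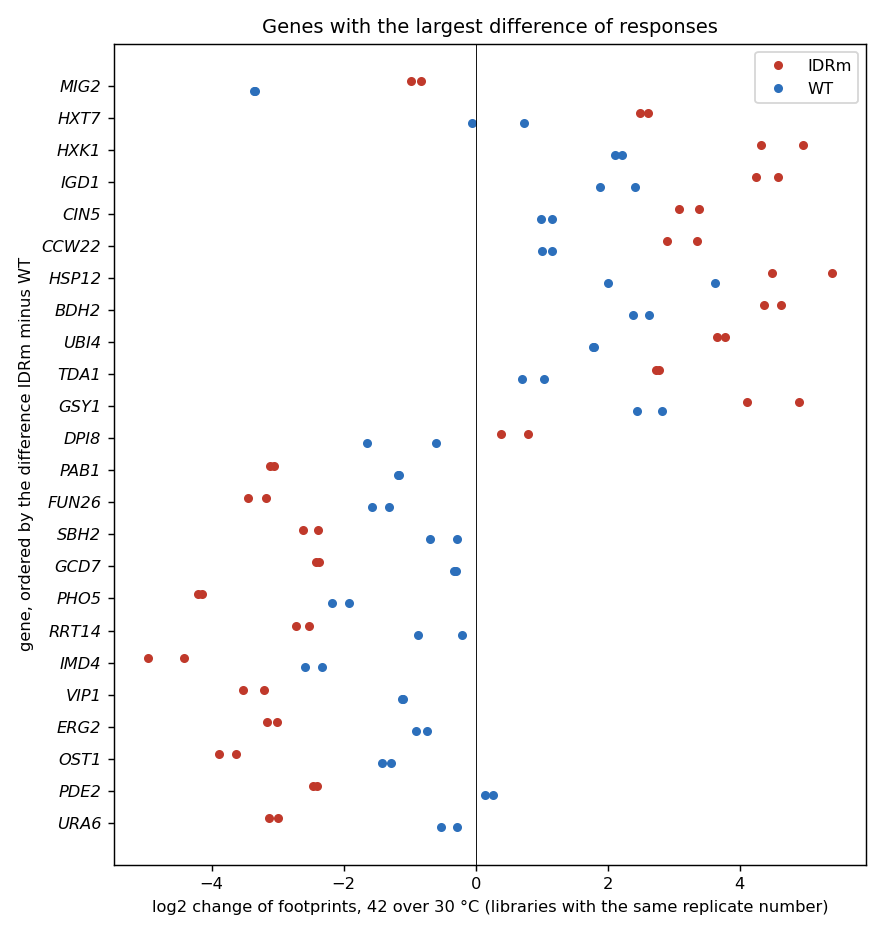
Points are the log2 change from 30 to 42 °C in CPM between libraries with the same replicate number, 2 per strain, for the 12 highest and 12 lowest called differences admitted by the naming rule; the numbers are not known to pair cultures. In all 24 genes the IDRm points and the WT points do not overlap, which the rule required.

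Among the 12 lowest differences that met the rule were genes of nucleotide, sterol, glycan and phosphate metabolism and PAB1. URA6 (YKL024C, chromosome XI, 392526 to 393140), the uridylate kinase, had 8.74 and 8.89 CPM in IDRm at 42 °C and 80.0 and 74.5 CPM in IDRm at 30 °C, against 72.3 and 86.8 CPM in WT at 42 °C and 104 and 106 CPM in WT at 30 °C. The IDRm libraries at 42 °C were far below all 6 others, and the difference was −2.72 ± 0.20 (edgeR, adjusted p = 2.06e-12). PDE2 (YOR360C, chromosome XV, 1013241 to 1014821), the high-affinity phosphodiesterase that degrades cyclic AMP, had 11.6 and 9.13 CPM in IDRm at 42 °C and 63.1 and 52.4 CPM in IDRm at 30 °C, against 62.2 and 57.4 CPM in WT at 42 °C and 51.7 and 51.9 CPM in WT at 30 °C. It changed by −2.47 in IDRm, and the WT change of 0.21 was not called, a difference of −2.68 ± 0.19 (edgeR, adjusted p = 1.86e-12).

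PAB1 (YER165W, chromosome V, 510373 to 512106), which encodes the protein that coats poly(A) tails, had 205 and 190.5 CPM in IDRm at 42 °C and 1717 and 1663 CPM in IDRm at 30 °C, against 768 and 775 CPM in WT at 42 °C and 1728 and 1733 CPM in WT at 30 °C. The strains were close at 30 °C, and at 42 °C IDRm over WT was −1.96 on the log2 scale, with a difference of responses of −1.93 ± 0.09 (edgeR, adjusted p = 6.32e-16). OST1 (YJL002C, chromosome X, 433221 to 434651), a subunit of the oligosaccharyltransferase that glycosylates proteins in the endoplasmic reticulum, had 17.3 and 14.7 CPM in IDRm at 42 °C and 219.8 and 224 CPM in IDRm at 30 °C, against 97.4 and 88.9 CPM in WT at 42 °C and 237 and 238 CPM in WT at 30 °C. Its difference was −2.44 ± 0.16 (edgeR, adjusted p = 1.33e-13). GCD7 (YLR291C, chromosome XII, 718317 to 719462), the beta subunit of the exchange factor eIF2B, had 19.0 and 17.8 CPM in IDRm at 42 °C and 103 and 94.5 CPM in IDRm at 30 °C, against 87.4 and 84.4 CPM in WT at 42 °C and 108 and 106 CPM in WT at 30 °C, a difference of −2.10 ± 0.16 (edgeR, adjusted p = 9.72e-12). In all 3 genes the 2 IDRm libraries at 42 °C lay below every other library.

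The same arrangement held for 7 further genes, with an adjusted p of at most 3.33e-07 (edgeR). ERG2 (YMR202W, chromosome XIII, 667537 to 668205), a sterol isomerase, changed by −3.10 in IDRm and −0.82 in WT (difference −2.27 ± 0.14). VIP1 (YLR410W, chromosome XII, 937541 to 940981), an inositol pyrophosphate kinase, changed by −3.38 and −1.11 (difference −2.27 ± 0.15). PHO5 (YBR093C, chromosome II, 429548 to 430951), the repressible acid phosphatase, changed by −4.21 and −2.06 (difference −2.15 ± 0.15), and it shares 21.5% of its 28-base words with other genes. SBH2 (YER019C-A, chromosome V, 194273 to 194539), a beta subunit of a Sec61-like translocon, changed by −2.52 and −0.51 (difference −2.0 ± 0.17). FUN26 (YAL022C, chromosome I, 108877 to 110430), a vacuolar nucleoside transporter, changed by −3.41 and −1.47 (difference −1.94 ± 0.25). IMD4 (YML056C, chromosome XIII, 162194 to 164176), an inosine monophosphate dehydrogenase of guanine nucleotide synthesis whose frame overlaps another annotated gene over 86 bases, changed by −4.71 and −2.45 (difference −2.27 ± 0.15). RRT14 (YIL127C, chromosome IX, 117024 to 117644), a nucleolar protein gene, changed by −2.68 and −0.49 (difference −2.19 ± 0.23). Just inside the rule's limit of 12 genes each way stood DPI8 at 1.90 and PAB1 at −1.93, and just outside it stood genes at 1.85 and −1.91.

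**Figure D3:**
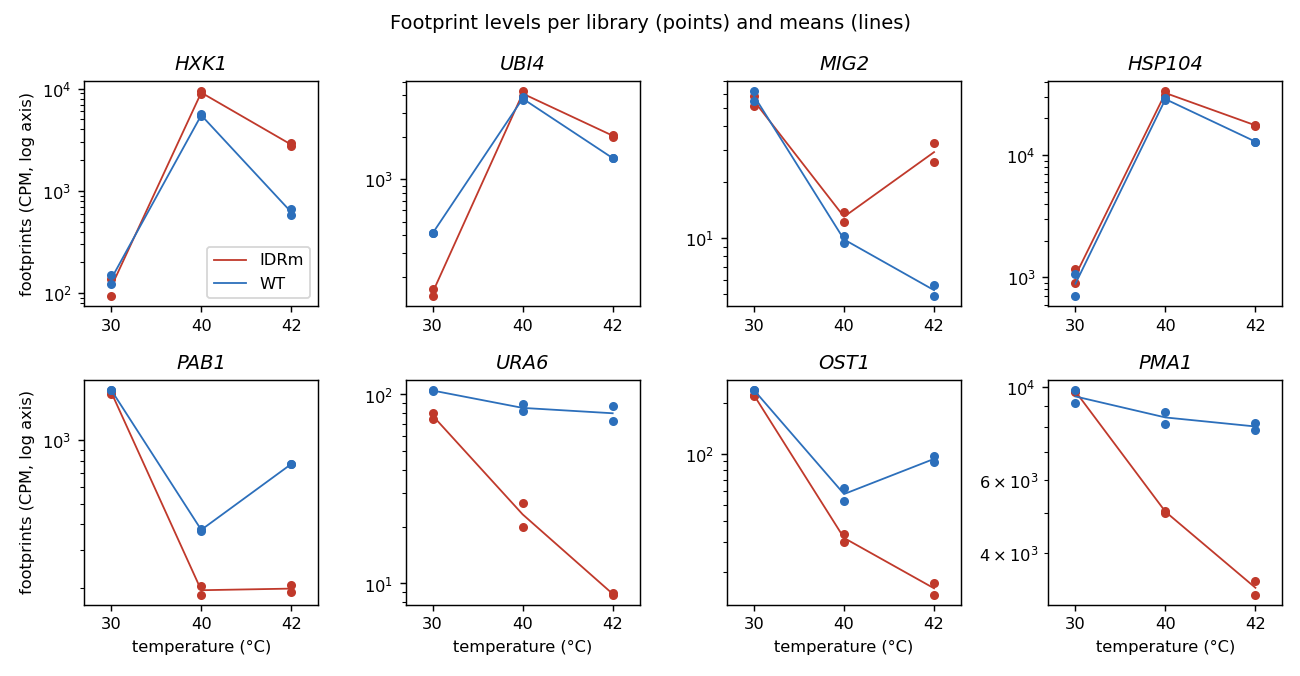
Footprint level in CPM (log axis) per library at 30, 40 and 42 °C, IDRm in red and WT in blue, with lines through the means of 2 libraries. HXK1 and UBI4 peaked at 40 °C in both strains, URA6 and PMA1 were lower at each step in IDRm, and MIG2 was lower at 42 than at 40 °C in WT but not in IDRm.

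Values at 40 °C share the 30 °C libraries with those at 42 °C, so the pairs given here are set side by side and no agreement is read from them. Over all genes 218 (3.81%) were called higher and 487 (8.52%) lower in the difference of responses at 40 °C. For PAB1 it was −0.92 at 40 °C against −1.93 at 42 °C, and the step from 40 to 42 °C differed by −1.01 (edgeR, adjusted p = 1.91e-08). For MIG2 it was 0.50 at 40 °C (edgeR, adjusted p = 0.193) against 2.54 at 42 °C, and the step differed by 2.04 (edgeR, adjusted p = 2.18e-05). RRT14 was at 0.01 and GCD7 at −0.29 at 40 °C, neither called there, and the step from 40 to 42 °C differed by −2.20 and −1.81 (edgeR, adjusted p = 0.000191 and 2.97e-08). ERG20, farnesyl pyrophosphate synthase, was at −1.29 at 40 °C, with −1.31 at 42 °C. SSB1 was at −1.60 at 40 °C and −0.82 at 42 °C. The step itself was called higher in 357 genes (6.24%) and lower in 220 (3.85%), a balance that turned to 207 higher and 282 lower with DESeq2 size factors, and to 211 and 296 with library size alone.

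In the lists below, a member given with a difference from all 12 libraries and no p was called at that threshold. A value with a library left out and no p is given as a size alone, with no call implied. Counts in the difference of responses stand beside 11.4% higher and 16.1% lower over all genes. Heat-inducible chaperones of the cytosol rose in both strains, 25 of 26 being called higher at 42 °C in IDRm and 24 in WT (background 36.8% and 30% of all genes). Their median changes were 2.96 in IDRm and 2.69 in WT. In the difference of responses 8 were called higher and none lower, but 4 were called lower without WT replicate 2 at 30 °C. HSP104 (YLL026W, chromosome XII, 88623 to 91349), the disaggregase, had 17410 and 17650 CPM in IDRm at 42 °C and 903 and 1166 CPM in IDRm at 30 °C, against 12910 and 12890 CPM in WT at 42 °C and 705 and 1069 CPM in WT at 30 °C. The IDRm libraries at 42 °C were the highest, the 30 °C libraries overlapped, and the difference was 0.22 ± 0.28 (edgeR, adjusted p = 0.643). HSP26, a small heat-shock protein, had 4099 and 3773 CPM in IDRm at 42 °C and 55.0 and 79.2 CPM in IDRm at 30 °C, against 2395 and 2181 CPM in WT at 42 °C and 27.7 and 115 CPM in WT at 30 °C, and its difference was 0.72 ± 0.75 (edgeR, adjusted p = 0.556). Without WT replicate 1 at 30 °C it was 1.54 (edgeR, adjusted p = 6.11e-07), and without WT replicate 2 it was −0.50 (edgeR, adjusted p = 0.0515).

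SSA4, an inducible Hsp70, had a difference of 0.58 ± 0.69 (edgeR, adjusted p = 0.614), which became 1.20 without WT replicate 1 at 30 °C and −0.42 without replicate 2. HSP104 likewise became 0.48 (edgeR, adjusted p = 0.00789) and −0.11. HSP82, an Hsp90, was at 0.01 ± 0.24 and SSA1, an Hsp70, at 0.10 ± 0.10 (edgeR, adjusted p = 0.977 and 0.533). Among the called members, HSP31, a chaperone of the DJ-1 family, had 306 and 278 CPM in IDRm at 42 °C and 82.7 and 95.3 CPM in IDRm at 30 °C, against 102 and 90.3 CPM in WT at 42 °C and 46.5 and 49.5 CPM in WT at 30 °C. It was higher in IDRm at both temperatures, and its difference was 0.69 ± 0.13 (edgeR, adjusted p = 0.000128). STI1, which links Hsp70 to Hsp90, was at 0.49 ± 0.10 and CPR6, an Hsp90-bound prolyl isomerase, at 0.45 ± 0.10. The count of 8 became 13 without WT replicate 1 at 30 °C, 5 without IDRm replicate 1 at 30 °C, 5 without IDRm replicate 2 at 42 °C, and 4 with DESeq2. With DESeq2 size factors or library size alone, 1 was called lower.

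General stress genes, the targets of Msn2 and Msn4 among them, were called higher in 19 of 40 and lower in none, with a median difference of 0.73 (median responses 2.83 in IDRm and 2.16 in WT). Together they held 2.23% and 2.06% of counts in IDRm at 42 °C and 0.33% and 0.375% in IDRm at 30 °C, against 1.07% and 0.978% in WT at 42 °C and 0.313% and 0.299% in WT at 30 °C. At 42 °C both IDRm libraries lay above both WT libraries, and the members' median strain difference there was 1.07, against 0.38 at 30 °C. Leaving out WT replicate 2 or IDRm replicate 1 at 30 °C, or scaling by library size alone, gave 1 lower call. AGGGG stood before 82.5% of the list, against 22.5% of all windows. Targets of Msn2 and Msn4 were put in the list by choice, so that share says little about the differences. GPD1, the glycerol phosphate dehydrogenase of the osmotic stress response, had 1000 and 1011 CPM in IDRm at 42 °C and 166 and 193 CPM in IDRm at 30 °C, against 462 and 482 CPM in WT at 42 °C and 276 and 202 CPM in WT at 30 °C. Its 30 °C values were lower in IDRm, its 42 °C values higher, and its difference was 1.52 ± 0.16 (edgeR, adjusted p = 9.56e-06).

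Genes of trehalose and glycogen, the reserve sugars that heated yeast builds up, were called higher in 10 of 18 and lower in none, with median responses of 1.69 in IDRm and 0.91 in WT. PGM2, phosphoglucomutase, was at 1.81 ± 0.50 (edgeR, adjusted p = 0.0414), a call lost in 9 of 15 settings with an adjusted p of up to 0.112. GLG1, which primes glycogen synthesis, was at 1.29 ± 0.33 (edgeR, adjusted p = 0.00354). Antioxidant genes were called higher in 14 of 24 and lower in 2 (0 to 2 with 1 library left out). GRX2, a glutaredoxin whose frame overlaps another over 47 bases, had 145 and 132 CPM in IDRm at 42 °C and 59.7 and 61.6 CPM in IDRm at 30 °C, against 71.5 and 68.8 CPM in WT at 42 °C and 68.7 and 55.2 CPM in WT at 30 °C. The IDRm libraries at 42 °C were the highest by a wide gap, and the difference was 1.04 ± 0.14 (edgeR, adjusted p = 9.23e-07). AHP1 and PRX1, both peroxiredoxins, were at 0.93 ± 0.10 and 0.88 ± 0.15.

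Stress transcription factors split, with 3 of 16 called higher and 5 lower. CIN5 is described above. MSN4, an activator of general stress genes, had 122 and 115 CPM in IDRm at 42 °C and 63.9 and 68.3 CPM in IDRm at 30 °C, against 55.3 and 63.2 CPM in WT at 42 °C and 57.5 and 53.3 CPM in WT at 30 °C, and its difference was 0.77 ± 0.14 (edgeR, adjusted p = 0.000113). YAP6, a bZIP factor related to CIN5, was lower at −0.87 ± 0.22 (edgeR, adjusted p = 0.00347), and the call was lost on leaving out IDRm replicate 1 at 30 °C (adjusted p = 0.0655). Leaving out WT replicate 1 at 30 °C, either IDRm replicate at 30 °C or IDRm replicate 1 at 42 °C left 3 of the 5 lower calls. Of the ubiquitin and misfolded-protein genes, 6 of 24 were called higher and 2 lower (1 to 2 with 1 library left out). RSP5, a HECT ubiquitin ligase, was at 0.97 ± 0.16 and had a strain difference of 0.05 at 42 °C and −0.91 at 30 °C. RAD23, which carries ubiquitinated proteins to the proteasome, was at −0.94 ± 0.14.

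Ribosome biogenesis genes held more lower calls than any other list. Of 127 tested, 112 were called lower and none higher, with median responses of −1.40 in IDRm and −0.60 in WT. The median difference of responses ran from −0.894 to −0.657 with 1 library left out. Their share of counts was 1.09% and 1.07% in IDRm at 42 °C and 3.16% and 2.79% in IDRm at 30 °C, against 1.61% and 1.49% in WT at 42 °C and 2.2% and 2.52% in WT at 30 °C. IDRm had the highest values of all at 30 °C and the lowest at 42 °C. The members' median strain difference was −0.35 at 42 °C, where 74 were called lower and none higher (20.7% and 20.4% of all genes were, or 1587 and 813 genes with library size alone), and 0.43 at 30 °C, where 105 were called higher (9.58% of all genes were) and 1 lower. How these counts of strain differences move with a library left out is not given here. GATGAG stood before 89.8% of the list and AAAATTTT before 78.7%.

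MAK21 (YDR060W, chromosome IV, 570649 to 573726), a factor of large-subunit assembly and nuclear export, had 75.8 and 78.1 CPM in IDRm at 42 °C and 450 and 368 CPM in IDRm at 30 °C, against 211 and 201 CPM in WT at 42 °C and 304 and 346 CPM in WT at 30 °C. UTP23, a component of the small-subunit processome, had 20.1 and 25.2 CPM in IDRm at 42 °C and 95.8 and 85.1 CPM in IDRm at 30 °C, against 56.3 and 51.3 CPM in WT at 42 °C and 61.4 and 66.0 CPM in WT at 30 °C. REI1, a cytosolic factor of late large-subunit maturation whose frame overlaps another over 453 bases, had 5.03 and 5.53 CPM in IDRm at 42 °C and 104 and 80.4 CPM in IDRm at 30 °C, against 11.5 and 11.7 CPM in WT at 42 °C and 53.5 and 69.5 CPM in WT at 30 °C. In all 3 genes both IDRm libraries at 42 °C were below both WT libraries at 42 °C, and both at 30 °C were above both WT libraries at 30 °C. The differences were −1.76 ± 0.14, −1.77 ± 0.18 and −1.75 ± 0.34 (edgeR, adjusted p = 1.65e-11, 2.83e-09 and 0.000634). RNA polymerases I and III, which make ribosomal and transfer RNA, were called lower in 15 of 22 and higher in none. RPA190, the largest polymerase I subunit, was at −1.24 ± 0.13, RPA43, another polymerase I subunit, at −1.33 ± 0.17, and RPC34, a polymerase III subunit, at −1.23 ± 0.17. Without IDRm replicate 1 at 30 °C, 9 of the 22 polymerase genes were called lower.

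Ribosomal protein genes were split between no call and a lower call. In the large subunit 31 of 80 were called lower and 2 higher, and in the small subunit 21 of 57 were called lower and 2 higher. With library size alone or DESeq2 size factors none of either subunit was called higher, nor without WT replicate 1 at either temperature, IDRm replicate 2 at 30 °C or either IDRm replicate at 42 °C. RPS12 (YOR369C, chromosome XV, 1028194 to 1028625), a small-subunit protein, had 981 and 1032 CPM in IDRm at 42 °C and 2408 and 2439 CPM in IDRm at 30 °C, against 2995 and 3078 CPM in WT at 42 °C and 2470 and 2455 CPM in WT at 30 °C. WT rose and IDRm fell, with a difference of −1.57 ± 0.09 (edgeR, adjusted p = 3.22e-14). RPL24B was at −1.49 ± 0.10, and it shares 19.9% of its 28-base words with other genes. RPL11A (−1.76 ± 0.12), RPL4A (−1.49 ± 0.12), RPS6B (−1.49 ± 0.11) and RPS4B (−0.82 ± 0.10) share more than that with their duplicates (67.5%, 82.9%, 81.1% and 63.1%), so reads of the copies may be divided arbitrarily.

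**Figure D4:**
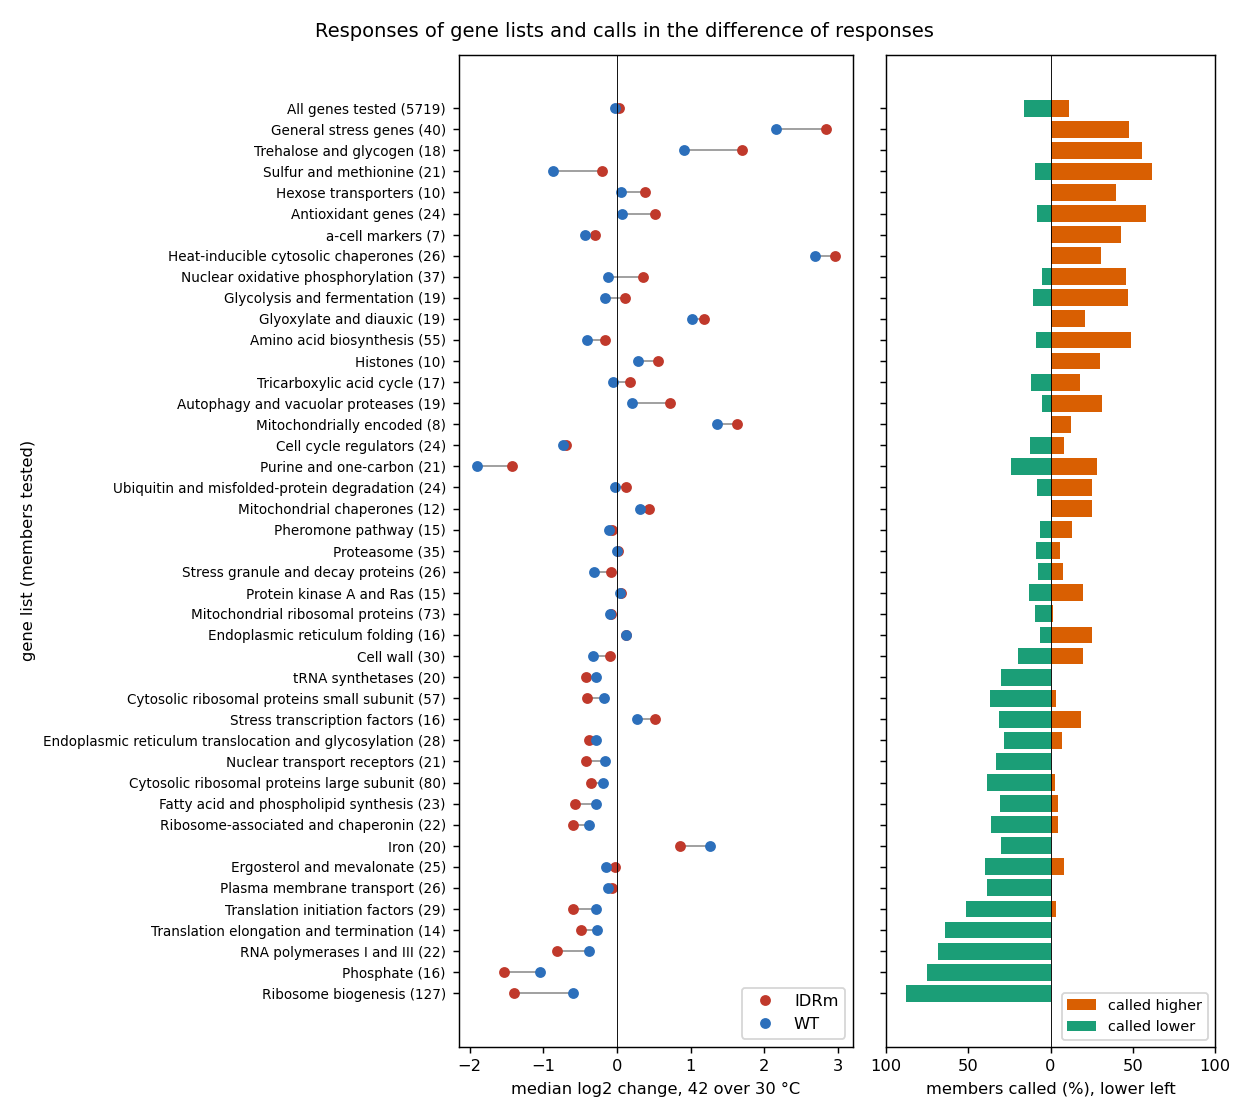
Left, median log2 change from 30 to 42 °C in IDRm (red) and WT (blue) for each gene list with at least 5 members tested, ordered by the median difference of responses; right, percent of members called higher (right of 0) or lower (left of 0) in that difference. Ribosome biogenesis had 112 of 127 members called lower, and general stress genes 19 of 40 called higher, beside 16.1% lower and 11.4% higher over all genes.

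Initiation factors were called lower in 15 of 29 and higher in 1, with median responses of −0.59 in IDRm and −0.28 in WT. Besides PAB1 and GCD7, TIF3, the helicase cofactor eIF4B, had 131 and 129.5 CPM in IDRm at 42 °C and 618 and 555 CPM in IDRm at 30 °C, against 334 and 324 CPM in WT at 42 °C and 535 and 567 CPM in WT at 30 °C. Both IDRm libraries at 42 °C were the lowest of the 8, and the difference was −1.43 ± 0.11 (edgeR, adjusted p = 3.16e-12). The single member called higher was DBP1, a close relative of DED1, named here after its value was seen. DBP1 had 19.9 and 23.1 CPM in IDRm at 42 °C and 8.53 and 8.56 CPM in IDRm at 30 °C, against 7.83 and 11.9 CPM in WT at 42 °C and 8.63 and 7.57 CPM in WT at 30 °C. Its IDRm libraries at 42 °C stood above the other 6, and its difference was 1.13 ± 0.28 (edgeR, adjusted p = 0.00289). Its call was lost without WT replicate 1 at 30 °C (adjusted p = 0.0545) and without WT replicate 1 at 42 °C (adjusted p = 0.0505). In elongation and termination 9 of 14 were called lower and none higher. SUP35, the release factor eRF3, was at −1.19 ± 0.11. EFT1 and EFT2, which encode the same elongation factor 2 and share 95.5% of 28-base words, were at −0.94 ± 0.12 and −0.70 ± 0.11. TEF1, elongation factor 1 alpha with a near-identical copy, was at −0.36 ± 0.12 (edgeR, adjusted p = 0.0254), a call lost in 7 of 15 settings.

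Of 20 tRNA synthetases, 6 were called lower and none higher, or 1 higher without WT replicate 2 at 42 °C. ALA1, alanyl-tRNA synthetase, had 91.8 and 102 CPM in IDRm at 42 °C and 988 and 942 CPM in IDRm at 30 °C, against 391 and 361 CPM in WT at 42 °C and 1011 and 985 CPM in WT at 30 °C. The IDRm libraries at 42 °C were below the others by a wide gap, and the difference was −1.91 ± 0.10 (edgeR, adjusted p = 3.59e-15). CDC60, the leucyl enzyme, was at −0.87 ± 0.10 and DED81, the asparaginyl enzyme, at −0.46 ± 0.09. Chaperones at the ribosome and the chaperonin were called lower in 8 of 22 and higher in 1 (0 to 2 with 1 library left out), or lower in 5 without IDRm replicate 1 at 42 °C. CCT5, a chaperonin subunit, was at −0.85 ± 0.12, and the ribosome-bound Hsp70 pair SSB1 and SSB2 was at −0.82 ± 0.09 and −1.10 ± 0.10, with 60.6% and 60.9% of shared words. Nuclear transport receptors were called lower in 7 of 21 and higher in none, or lower in 4 without IDRm replicate 1 at 42 °C and in 4 with DESeq2. PSE1, an importin, was at −1.84 ± 0.16, KAP123, another, at −0.80 ± 0.09, and MEX67, an mRNA export receptor, at −0.72 ± 0.19.

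Hexose transporters were called higher in 4 of 10 and lower in none, with 1 lower without WT replicate 1 at 30 °C and under both other scalings. HXT6, which shares 96.0% of its words with HXT7, had 12.9 and 13.0 CPM in IDRm at 42 °C and 0.190 and 0.839 CPM in IDRm at 30 °C, against 0.887 and 0.467 CPM in WT at 42 °C and 0.365 and 0.811 CPM in WT at 30 °C, so its level was near 0 outside IDRm at 42 °C. HXT5, induced on slow growth, was at 1.15 ± 0.35 (edgeR, adjusted p = 0.0146), with a call that ended without WT replicate 2 or IDRm replicate 1 at 30 °C. Glycolysis and fermentation genes were called higher in 9 of 19 and lower in 2 (1 to 3 with 1 library left out), or higher in 5 without IDRm replicate 1 at 30 °C and in 5 without IDRm replicate 2 at 42 °C. TDH1, a glyceraldehyde phosphate dehydrogenase sharing 28.8% of its words, was at 0.74 ± 0.12, and HXK2, the main hexokinase, at 0.48 ± 0.10. CDC19, pyruvate kinase, had 3167 and 3365 CPM in IDRm at 42 °C and 8740 and 8824 CPM in IDRm at 30 °C, against 4839 and 5204 CPM in WT at 42 °C and 8036 and 8057 CPM in WT at 30 °C. It fell further in IDRm, with a difference of −0.75 ± 0.09 (edgeR, adjusted p = 2.26e-07). PGK1, phosphoglycerate kinase, was at 0.34 ± 0.10 (edgeR, adjusted p = 0.00668), lost without IDRm replicate 1 at 30 °C or IDRm replicate 2 at 42 °C.

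Nuclear genes of oxidative phosphorylation were called higher in 17 of 37 and lower in 2. NDI1, the internal NADH dehydrogenase, had 179 and 176 CPM in IDRm at 42 °C and 60.1 and 67.5 CPM in IDRm at 30 °C, against 96.1 and 102 CPM in WT at 42 °C and 74.5 and 66.2 CPM in WT at 30 °C. Both IDRm libraries at 42 °C were the highest, and the difference was 1.00 ± 0.13 (edgeR, adjusted p = 4.45e-07). INH1, an inhibitor of the ATP synthase's reverse reaction, was at 0.84 ± 0.17. CYC7, a cytochrome c isoform of stressed cells, was at 1.30 ± 0.33, a call that ended without WT replicate 1 at 30 °C (adjusted p = 0.11). The count of 17 became 7 without WT replicate 1 at 30 °C and 11 without IDRm replicate 1 at 30 °C.

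Amino acid biosynthesis genes were called higher in 27 of 55 and lower in 5, with median responses of −0.17 in IDRm and −0.41 in WT. Heat lowered 28 of them in IDRm and 43 in WT, where 36.7% and 33.6% of all genes were called lower. The 5 members called lower in the difference became 3 without IDRm replicate 1 at 30 °C or IDRm replicate 2 at 42 °C. ARG1, argininosuccinate synthetase, had 237 and 264 CPM in IDRm at 42 °C and 378 and 380.5 CPM in IDRm at 30 °C, against 104 and 138 CPM in WT at 42 °C and 414 and 425 CPM in WT at 30 °C. The 30 °C libraries were close, the 42 °C libraries of IDRm were higher, and the difference was 1.21 ± 0.13 (edgeR, adjusted p = 1.06e-08). HIS5, of histidine synthesis, was at 1.15 ± 0.13. SER3, of serine synthesis, was at 1.14 ± 0.15, with IDRm over WT at −0.34 on the log2 scale at 42 °C and −1.48 at 30 °C.

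Sulfur and methionine genes were called higher in 13 of 21 and lower in 2, or higher in 8 without IDRm replicate 1 at 30 °C and in 7 with DESeq2. Their median strain difference was −0.20 at 42 °C and −0.56 at 30 °C, so the strains stood further apart without heat. Heat lowered 9 members in IDRm and 16 in WT, where 36.7% and 33.6% of all genes were called lower. MET1, of siroheme synthesis, had 8.08 and 9.13 CPM in IDRm at 42 °C and 9.67 and 12.6 CPM in IDRm at 30 °C, against 8.28 and 11.2 CPM in WT at 42 °C and 30.1 and 32.5 CPM in WT at 30 °C. WT at 30 °C was the high group, and the difference was 1.33 ± 0.29 (edgeR, adjusted p = 0.000714). The sulfate transporters SUL1 and SUL2 were at 1.27 ± 0.41 and 1.38 ± 0.37 with under 20 CPM in every library, and both calls ended without IDRm replicate 1 at 30 °C, that of SUL1 also without IDRm replicate 1 at 42 °C. Purine and one-carbon genes split, with 6 of 21 called higher and 5 lower. GCV2, of the glycine cleavage system, was at 1.12 ± 0.14, and SHM1, mitochondrial serine hydroxymethyltransferase, at −1.68 ± 0.14, beside IMD4.

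Phosphate genes were called lower in 12 of 16 and higher in none, or lower in 7 without IDRm replicate 1 at 30 °C. The acid phosphatases PHO11 and PHO12, near-identical copies, were at −1.33 ± 0.35 and −1.19 ± 0.20, and that of PHO11 was lost without IDRm replicate 2 at 42 °C. Ergosterol and mevalonate genes were called lower in 10 of 25 and higher in 2 (1 to 2 with 1 library left out). ERG11, lanosterol demethylase, had 219.6 and 232 CPM in IDRm at 42 °C and 817 and 800.1 CPM in IDRm at 30 °C, against 709.7 and 729 CPM in WT at 42 °C and 759 and 886 CPM in WT at 30 °C. The IDRm libraries at 42 °C were the lowest by far, and the difference was −1.65 ± 0.10 (edgeR, adjusted p = 8e-14), beside ERG20 at −1.31 ± 0.10.

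Genes of the cell surface and secretion followed. Plasma membrane transport genes were called lower in 10 of 26 and higher in none. PMA1 (YGL008C, chromosome VII, 479910 to 482666), the proton pump of the plasma membrane, had 3191 and 3433 CPM in IDRm at 42 °C and 9749 and 9736 CPM in IDRm at 30 °C, against 7873 and 8196 CPM in WT at 42 °C and 9129 and 9823 CPM in WT at 30 °C. The 30 °C libraries overlapped, IDRm at 42 °C was far lower, and the difference was −1.32 ± 0.10 (edgeR, adjusted p = 2.07e-12). YOR1, a drug pump, was at −0.89 ± 0.17 and FUI1, a uridine permease, at −0.88 ± 0.16. Genes of endoplasmic reticulum translocation and glycosylation were called lower in 8 of 28 and higher in 2 (1 to 3 with 1 library left out). STT3, the catalytic subunit of the oligosaccharyltransferase, was at −1.15 ± 0.12, and OST6, another subunit, at −1.03 ± 0.25, a call that ended without WT replicate 1 at 42 °C.

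Cell wall genes split evenly, with 6 of 30 called higher and 6 lower, and without WT replicate 2 at 42 °C 11 were higher. FKS1, the main glucan synthase, had 210.2 and 193 CPM in IDRm at 42 °C and 1857 and 1852 CPM in IDRm at 30 °C, against 701 and 627 CPM in WT at 42 °C and 1846 and 2054 CPM in WT at 30 °C. It fell in both strains and further in IDRm, with a difference of −1.65 ± 0.11 (edgeR, adjusted p = 1.43e-13). CHS3, a chitin synthase, was at −1.55 ± 0.16 and KRE6, of beta-glucan synthesis, at −1.31 ± 0.12. Genes of protein kinase A and Ras were called higher in 3 of 15 and lower in 2, beside 11.4% and 16.1% of all genes, and nothing further is read from counts this small. Besides PDE2, TPK3, a catalytic subunit, was at −1.36 ± 0.22 and GPA2, a G protein alpha subunit, at 0.84 ± 0.14.

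The a-cell markers were lower in IDRm at 30 °C, where 6 of 7 were called lower (6.75% of all genes were). How that count moves in other settings is not given here, and over all genes lower calls at 30 °C fell from 386 to 158 with DESeq2. In the difference of responses 3 of 7 were called higher. AGA2, an agglutinin subunit, had 24.7 and 20.9 CPM in IDRm at 42 °C and 12.7 and 11.4 CPM in IDRm at 30 °C, against 17.6 and 17.0 CPM in WT at 42 °C and 25.5 and 18.9 CPM in WT at 30 °C. It rose in IDRm and fell in WT, a difference of 1.34 ± 0.23 (edgeR, adjusted p = 4.34e-05). BAR1, a pheromone protease, was at 0.40 ± 0.12 and MFA2, the a-factor precursor, at 0.52 ± 0.14. Both lost their call with DESeq2, and MFA2 also without WT replicate 1 at 42 °C.

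**Figure D5:**
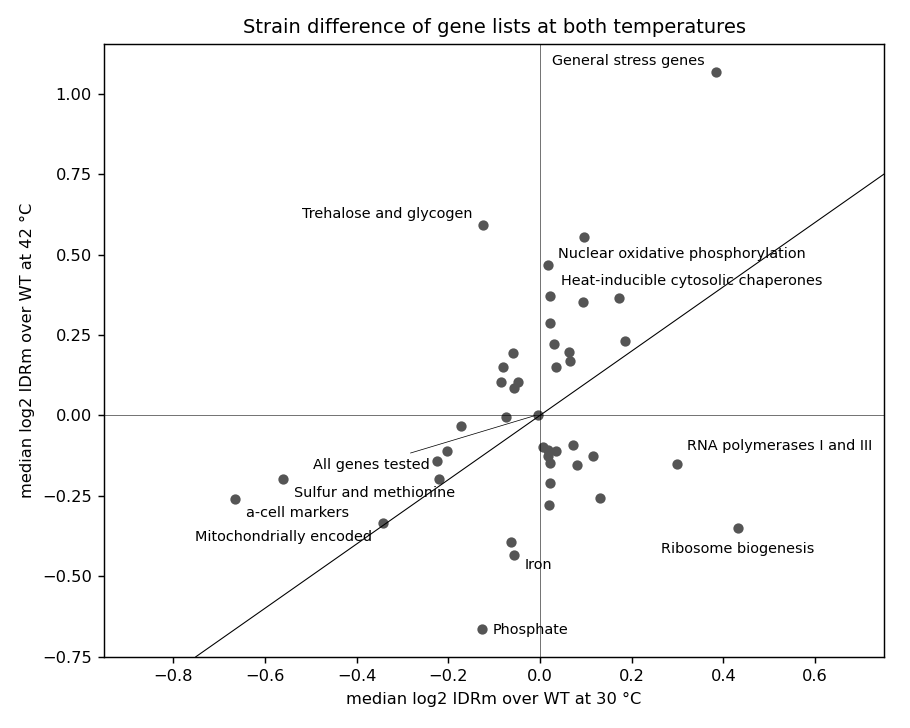
Each point is 1 gene list or all genes tested, with the median log2 level of IDRm over WT at 30 °C on the horizontal axis and at 42 °C on the vertical axis; the diagonal marks equal strain differences. Ribosome biogenesis lies at −0.35 at 42 °C and 0.43 at 30 °C, general stress genes at 1.07 and 0.38, and sulfur and methionine genes at −0.20 and −0.56.

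In 48 genes both responses were called and had opposite signs, 27 of them up in IDRm and 21 down, of 3186 called in both. The genes given here were chosen after their values were seen. MTH1, a repressor of hexose transporter genes, had 31.9 and 36.5 CPM in IDRm at 42 °C and 11.2 and 15.9 CPM in IDRm at 30 °C, against 10.1 and 8.16 CPM in WT at 42 °C and 20.2 and 11.4 CPM in WT at 30 °C. It rose by 1.32 in IDRm and fell by 0.88 in WT, with a difference of 2.19 ± 0.29, at a mean under the naming limit of 20 CPM. MDH2, cytosolic malate dehydrogenase, had 124 and 128 CPM in IDRm at 42 °C and 81.0 and 88.1 CPM in IDRm at 30 °C, against 58.1 and 71.4 CPM in WT at 42 °C and 106 and 108 CPM in WT at 30 °C, a difference of 1.31 ± 0.14. RPL28, a large-subunit ribosomal protein, had 258 and 258 CPM in IDRm at 42 °C and 348 and 311 CPM in IDRm at 30 °C, against 499.7 and 594 CPM in WT at 42 °C and 317 and 319.9 CPM in WT at 30 °C, and FET3, the iron-uptake oxidase, had 97.7 and 102 CPM in IDRm at 42 °C and 145 and 149 CPM in IDRm at 30 °C, against 225 and 234 CPM in WT at 42 °C and 137 and 186 CPM in WT at 30 °C. In both the IDRm libraries at 42 °C were the lowest and the WT libraries at 42 °C the highest, and the differences were −1.13 ± 0.11 and −1.09 ± 0.14 (edgeR, adjusted p = 3.61e-09 and 5.83e-07).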

How the data were processed

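Ribosome footprint counts per gene, not normalized, were taken as deposited by the authors for 12 libraries. Per the submitters' processing notes, the tools were STAR 2.5.2b, Bowtie2 2.2.6, cutadapt 1.17 and bcl2fastq 2.17.1.14, with build R64; the sources used here do not give their roles, the counting rule or the strand setting. Symbols and positions came from the RefSeq R64 annotation for 6014 of 6697 identifiers, and the other 683 held 0.04% to 0.112% of counts.

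Differences were tested in R 4.3.3 with edgeR 4.0.16: TMM scaling, a filter (count of at least 10, total of at least 15), 1 mean per group over 12 libraries, robust quasi-likelihood F tests with 6 residual degrees of freedom, and Benjamini-Hochberg adjustment over 5719 genes. Standard errors are the absolute change over the square root of F, hence approximate. Alternatives were other scalings, no filter, the 8 libraries alone, replicate blocks, glmTreat, DESeq2 1.42.0, a minimum of 2-fold and each of the 8 libraries left out.

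Named genes are the 12 highest and 12 lowest called differences with a symbol, at least 20 CPM on average and strain responses that do not overlap, up to 3 called members of each list described, and 11 genes always given. A gene whose share of 28-base words found in another coding sequence reached 20% is marked as uncertain. Motifs were searched on both strands of the 300 bases before each start codon. The genes, lists and settings were chosen with earlier results of these data known.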

Additional observations from a re-analysis of the deposited data

Results flagged for a closer look

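The difference of responses between the strains was itself tested as an interaction term, and the named genes that passed it are collected here as log2 values, IDRm response minus WT response. In sugar use and its control they were MIG2 at 2.54, HXT7 at 2.47, HXK1 at 2.46, TDA1 at 1.93, HXT6 at 4.03, HXT5 at 1.15, TDH1 at 0.74, HXK2 at 0.48, PGK1 at 0.34 and CDC19 at −0.75. In glycogen, glycerol and general stress they were IGD1 at 2.35, GSY1 at 1.92, PGM2 at 1.81, GLG1 at 1.29, GPD1 at 1.52 and HSP12 at 2.0. Outside these groups BDH2 was at 1.97, CCW22 at 2.08 and DPI8 at 1.90. Of chaperones and redox enzymes, HSP31 was at 0.69, STI1 at 0.49, CPR6 at 0.45, GRX2 at 1.04, AHP1 at 0.93, PRX1 at 0.88, SSB2 at −1.10, SSB1 at −0.82 and CCT5 at −0.85. Of ubiquitin genes and regulators, UBI4 was at 1.94, RSP5 at 0.97, RAD23 at −0.94, CIN5 at 2.17, MSN4 at 0.77, YAP6 at −0.87, PDE2 at −2.68, TPK3 at −1.36 and GPA2 at 0.84.

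Translation genes were PAB1 at −1.93, GCD7 at −2.10, TIF3 at −1.43, SUP35 at −1.19, EFT1 at −0.94, EFT2 at −0.70, TEF1 at −0.36, ALA1 at −1.91, CDC60 at −0.87 and DED81 at −0.46. Ribosomal protein genes were RPL11A at −1.76, RPL24B at −1.49, RPL4A at −1.49, RPS12 at −1.57, RPS6B at −1.49 and RPS4B at −0.82. Ribosome assembly and polymerase genes were UTP23 at −1.77, MAK21 at −1.76, REI1 at −1.75, RRT14 at −2.19, RPA43 at −1.33, RPA190 at −1.24 and RPC34 at −1.23. Nuclear transport genes were PSE1 at −1.84, KAP123 at −0.80 and MEX67 at −0.72.

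In nucleotide, one-carbon and amino acid metabolism, URA6 was at −2.72, IMD4 at −2.27, SHM1 at −1.68, GCV2 at 1.12, ARG1 at 1.21, HIS5 at 1.15 and SER3 at 1.14. The sulfur genes were SUL2 at 1.38, MET1 at 1.33 and SUL1 at 1.27, and the respiratory genes CYC7 at 1.30, NDI1 at 1.00 and INH1 at 0.84. Sterol, inositol and phosphate genes were ERG2 at −2.27, ERG11 at −1.65, ERG20 at −1.31, VIP1 at −2.27, PHO5 at −2.15, PHO11 at −1.33 and PHO12 at −1.19. At the cell surface and in secretion, OST1 was at −2.44, STT3 at −1.15, OST6 at −1.03, SBH2 at −2.0, FKS1 at −1.65, CHS3 at −1.55, KRE6 at −1.31, PMA1 at −1.32, YOR1 at −0.89 and FUI1 at −0.88. The vacuolar transporter gene FUN26 was at −1.94. The a-cell markers were AGA2 at 1.34, MFA2 at 0.52 and BAR1 at 0.40.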

How the results depend on the processing

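No named gene called here changed sign in the alternatives run, but the balance of higher and lower calls did. In the difference of responses at 42 °C, higher calls numbered 650 and fell to 316 with DESeq2, 123 at a minimum of 2-fold and 80 with glmTreat against 1.5-fold, and ran from 415 to 738 with 1 library left out. Lower calls numbered 919, with 223 at 2-fold, 204 with glmTreat and 690 to 935 with 1 library left out. Chosen after seeing the data, the count without genes that share 28-base words was 631 higher and 881 lower. DESeq2 gave 742 higher calls for IDRm over WT at 42 °C (1165 in edgeR), and 336 higher and 158 lower at 30 °C (548 and 386). With 1 library left out, those at 30 °C ran from 231 to 590 higher and from 136 to 408 lower. At 40 °C the higher calls were 119 with DESeq2 and 122 to 278 with 1 library left out. For the step from 40 to 42 °C (357 higher, 220 lower) the balance turned to 207 higher and 282 lower with DESeq2 size factors, 211 and 296 with library size alone and 125 and 166 with DESeq2; with 1 library left out higher calls ran from 193 to 444 and lower from 123 to 263. In the WT response it turned with library size alone (1897 higher, 1686 lower, against 1716 and 1919), and in the IDRm response, near even at 2104 and 2098, in 11 settings (1964 and 2188 with DESeq2 size factors). IDRm over WT at 42 °C gave 813 higher and 1587 lower with library size alone (1165 and 1183). The cause was not tested. Over 2982 genes, deviations of same-numbered libraries correlated at −0.247 to 0.264 over all 15 pairs of groups. They ran from −0.0477 to 0.129 within a strain, and stood at 0.264 between IDRm and WT at 42 °C. Values not over 0.1 in every pair cannot settle whether same-numbered libraries came from the same culture, so the pairing stays unknown. With a replicate block by culture, taken from the number within a strain, 681 genes were higher and 943 lower. With a block by number alone there were 649 and 925, and among named genes HSP12 and PGM2 lost their call in both. Of 103 named genes, 100 kept their side of the threshold with library size alone. With glmTreat against 1.5-fold, a stricter test, 70 did. SUL1 and SUL2 had under 20 CPM in every library, and the part of depth in their lost calls was not tested.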

Other observations

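Outside the lists described above, iron genes were called lower in 6 of 20 and higher in none (1 without WT replicate 2 at 42 °C), with median responses of 0.85 in IDRm and 1.26 in WT. Autophagy and vacuolar protease genes were called higher in 6 of 19 and lower in 1, with median responses of 0.72 in IDRm and 0.20 in WT, and the 6 became 1 without WT replicate 1 at 30 °C. Fatty acid and phospholipid genes were called lower in 7 of 23 and higher in 1; the 7 became 11 without WT replicate 2 at 30 °C, 4 without WT replicate 2 at 42 °C or IDRm replicate 1 at 30 °C, and 3 without IDRm replicate 1 at 42 °C. Histone genes were called higher in 3 of 10 and lower in none; the 3 became 7 without WT replicate 2 at 30 °C, and 1 without WT replicate 1 or IDRm replicate 1 at 30 °C, without either IDRm replicate at 42 °C, and under both other scalings. Mitochondrial ribosomal protein genes were called lower in 7 of 73 (4 without IDRm replicate 2 at 42 °C) and higher in 1 (0 to 4 with 1 library left out), and proteasome genes lower in 3 of 35 and higher in 2 (1 to 5, the 5 without WT replicate 2 at 30 °C), beside 16.1% lower and 11.4% higher over all genes. The remaining lists had few calls, and the ranges are those with 1 library left out. Glyoxylate and diauxic genes were called higher in 4 of 19 (1 to 6), mitochondrial chaperones in 3 of 12 (1 to 3), folding genes of the endoplasmic reticulum in 4 of 16 (1 to 4), tricarboxylic acid cycle genes in 3 of 17 (1 to 5), and stress granule and mRNA decay genes in 2 of 26 (2 to 5). Of those lists, lower calls numbered 1 for folding genes (0 to 1), 2 for the tricarboxylic acid cycle (2 to 3) and 2 for stress granule and decay genes (1 to 3). Cell cycle regulators were called higher in 2 of 24 (0 to 3) and lower in 3 (1 to 3), the pheromone pathway higher in 2 of 15 (2 to 2) and lower in 1 (0 to 1), and mitochondrially encoded genes higher in 1 of 8 (0 to 2).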
